A study of Mus musculus with 6 samples.

Results

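The MEF2 transcription factors, the class IIa histone deacetylases (HDACs) that repress them and the salt-inducible kinases (SIKs) that phosphorylate those HDACs were examined in cortical bone tubes cultured with and without parathyroid hormone (PTH). The members were chosen by gene symbol and are *Mef2a*, *Mef2b*, *Mef2c*, *Mef2d*, *Hdac4*, *Hdac5*, *Hdac7*, *Hdac9*, *Sik1* and *Sik2*. They are 10 of the 29537 distinct genes on the array, and all 10 have at least 1 probe. Bone tubes were the tibia and femur shafts of C57BL6 mice aged 3 months, from which muscle, marrow and surface cells had been removed so that osteocytes stayed in their matrix. Control tubes were cultured for 24 hours without hormone and PTH tubes for 24 hours with 250 nM Pth 1-34, the active fragment of the hormone, with 3 Illumina bead arrays for each group. Each preparation pooled the bones of several mice, so an array is 1 pool and not 1 animal, and no allele or transgene separates the groups.

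MEF2 proteins bind DNA and activate genes of muscle, endothelium, lymphocytes, cartilage and bone, and class IIa HDACs sit on them and recruit corepressors. SIKs phosphorylate class IIa HDACs, which then bind 14-3-3 proteins and stay in the cytoplasm, where they cannot repress. In osteocytes the PTH receptor raises cAMP, protein kinase A restrains the SIKs, HDAC4 and HDAC5 enter the nucleus and MEF2C drives less *Sost*, the gene of the bone formation inhibitor sclerostin. Much of this control acts on the proteins, whereas the arrays measured RNA.

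The defining osteocyte transcripts *Dmp1*, *Mepe* and *Phex* were above background on all 6 arrays, while *Fgf23* was on none. Of the 6 osteocyte markers examined, 5 were tested, 1 fell (*Mepe*) and none rose, with a median log2 change of −1.02. *Pdpn*, which encodes the early osteocyte protein E11/gp38, went the other way with a change of 0.70, higher on every PTH array (adjusted p = 0.0560, limma). Other cell types were present as well. All 8 neutrophil markers were tested, 5 fell with PTH, and their summed normalized signal ran from 52514 to 53286 in control and from 33975 to 38454 with PTH. Skeletal muscle markers summed to 407 to 415 in control and 375 to 391 with PTH, and 9 of 14, among them *Acta1*, *Ckm* and *Myod1*, were above background on no array. This muscle sum thus holds the background signal of those probes, and its ranges do not measure a fall in muscle RNA. An array had 34.2% to 38.4% of its probes above background, correlations between arrays of a group were 0.982 to 0.985, and the number of arrays limits the precision. In bulk bone, fewer cells of a type and less RNA per cell cannot be told apart.

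Values below are log2 signals after background correction and quantile normalization, and a change is the PTH mean minus the control mean on that scale, so that −1 is a halving. Differences were tested with limma, with Benjamini-Hochberg adjustment across the whole set of tested probes, and a gene was called at an adjusted p under 0.05 on its brightest probe. The labels do not say that the preparations of a group came from separate mice, so the p-values measure the spread between these arrays. An exact permutation test of 3 arrays against 3 cannot give a p below 0.1.

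Among the members, *Mef2c* fell with PTH and no other member passed the test. Of the 10 genes, 8 had a probe above background on at least 3 arrays and were tested, and *Mef2d* and *Hdac9* were not. The share called was 1 of 8 members, beside 1.76% of all 11490 genes tested, of which 1.05% were lower and 0.705% higher with PTH. At an unadjusted p under 0.05 there were 4 of the 8 members, *Mef2c*, *Mef2a*, *Hdac5* and *Sik1*, beside 14.9% of all genes tested. All PTH arrays lay below all control arrays for 3 members (*Mef2c*, *Mef2a* and *Hdac5*), beside 10.9% of all genes tested, and above them for 2 (*Sik1* and *Sik2*), beside 11% of all genes. The median change was −0.21 over the members tested and 0.005 over all genes tested. By family, the medians were −0.44 for the 3 MEF2 genes tested, −0.23 for the 3 class IIa HDACs tested and 0.40 for the 2 SIKs.

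**Figure D1:**
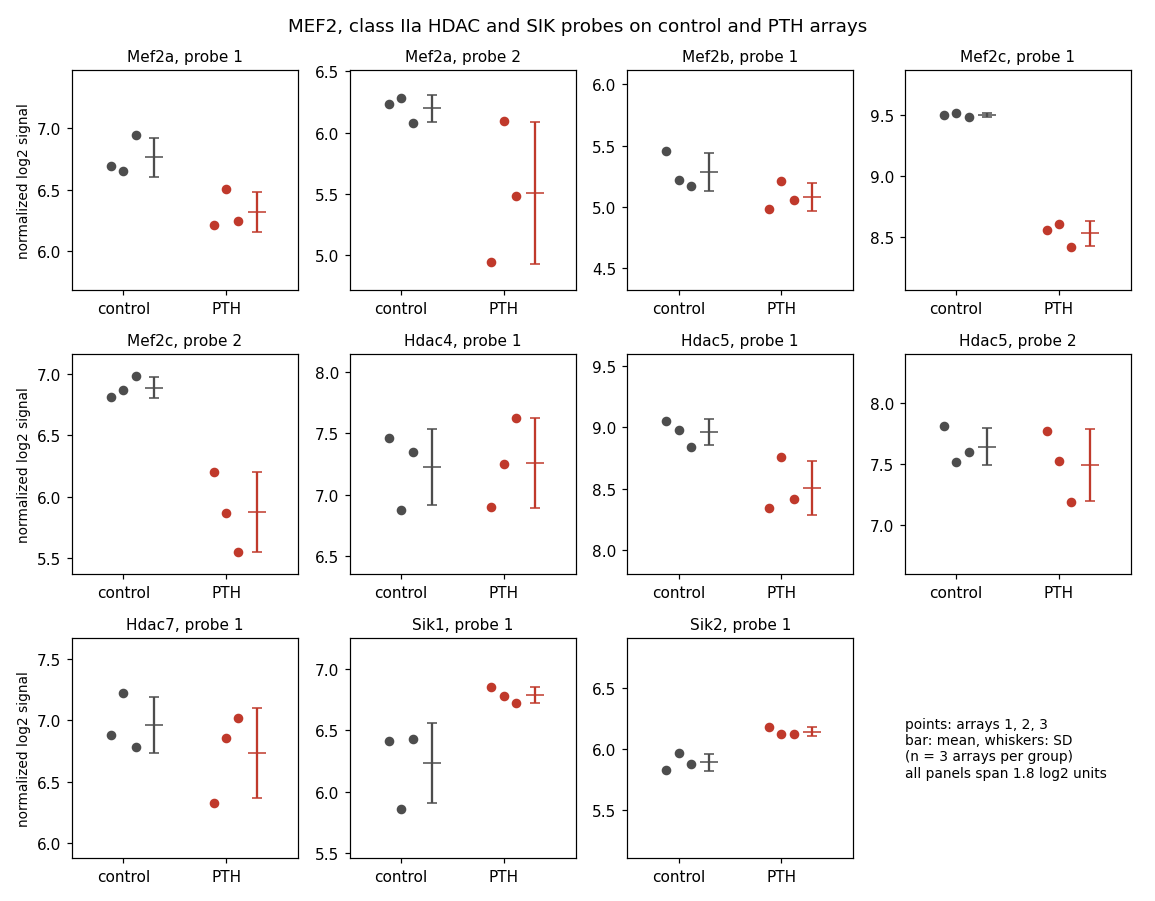
Normalized log2 signal (vertical axis) of the 11 member probes tested, on the 3 control and 3 PTH arrays, each panel spanning the same number of log2 units. Points are arrays, the bar is the mean and the whiskers are 1 SD (n = 3). Both *Mef2c* probes sit lower on every PTH array than on any control array, whereas the points of *Hdac4* and *Hdac7* overlap.

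*Mef2c* encodes the MEF2 factor best known for heart, endothelial, B cell and cartilage development and, in osteocytes, for driving *Sost*. Its brightest probe read 9.49, 9.52 and 9.48 in control and 8.56, 8.61 and 8.42 with PTH. The control arrays lay within a few hundredths of one another, and every PTH array was well below them. The mean went from 9.50 ± 0.017 (SD, n = 3) to 8.53 ± 0.10 (SD, n = 3), a change of −0.97 (SE 0.12, 95% interval −1.24 to −0.69), and the level was 1.96-fold higher in control (adjusted p = 0.0104, limma). The signals as deposited, before any correction, were 661, 812 and 792 in control and 395, 495 and 576 with PTH, and these did not overlap either. The call was lost when arrays were scaled by their median instead of quantile normalized (change −0.80, adjusted p = 0.244) and when control replicate 1 was left out (change −0.97, adjusted p = 0.0591). A block by replicate number, a pairing the labels do not give, also lost it (adjusted p = 0.0538, limma).

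The array carries 5 probes for *Mef2c*. The second brightest read 6.81, 6.87 and 6.98 in control and 6.20, 5.87 and 5.55 with PTH. It fell by 1.02 on the log2 scale (SE 0.18, adjusted p = 0.0372, limma), again without overlap. This change was near that of the brightest probe as reported, but under quantile normalization alone it was −0.46 beside −0.81. Its call was lost under median scaling, without a detection filter, with the replicate block and in 5 of 6 fits with 1 array left out. Another probe was above background on 2 control arrays and no PTH array, with a ratio of control to PTH of 1.09. Its control mean includes an array below background, so this ratio is not a firm minimum. A further probe was above background on 1 control array, and the dimmest on no array. The ratio of 1.09 sets the control mean against the lowest signal above background, or the probe's own where that is higher, on each PTH array.

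*Mef2a* encodes a broadly expressed factor of the same family. Its brightest probe read 6.69, 6.65 and 6.95 in control and 6.21, 6.51 and 6.24 with PTH. All PTH values were below all control values, but the change of −0.44 (SE 0.15, 95% interval −0.78 to −0.11) did not pass the test (adjusted p = 0.210, limma). The second probe changed by −0.69 (SE 0.27, adjusted p = 0.284) with overlapping groups, and its dimmest was above background on 1 control array. *Mef2b*, known for its role in germinal centre B cells, was near background at 5.46, 5.22 and 5.17 in control and 4.98, 5.21 and 5.06 with PTH. Its groups overlapped, with a change of −0.20 (SE 0.14, adjusted p = 0.571). *Mef2d*, a widely expressed member that often acts beside *Mef2a*, has 1 probe, which was above background on no array, so no change can be given for it.

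The 3 class IIa HDACs that could be tested did not pass. *Hdac5*, which represses MEF2 targets in muscle and bone, read 9.06, 8.98 and 8.84 in control and 8.34, 8.76 and 8.42 with PTH on its brightest probe. All PTH values were lower, from a mean of 8.96 ± 0.11 to 8.51 ± 0.22 (SD, n = 3), and the change was −0.45 (SE 0.15, 95% interval −0.80 to −0.11, adjusted p = 0.214, limma). Its second probe overlapped between groups at 7.81, 7.51 and 7.60 in control and 7.77, 7.52 and 7.19 with PTH, a change of −0.15 (SE 0.18, adjusted p = 0.759). The 2 probes thus moved by different amounts, and of the settings with an adjusted p only quantile normalization without background correction brought *Hdac5* past the threshold (change −0.37, adjusted p = 0.0445).

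*Hdac4*, the family member that restrains cartilage maturation, read 7.46, 6.87 and 7.35 in control and 6.90, 7.25 and 7.63 with PTH. The groups overlapped throughout, and the change of 0.03 had an interval of −0.50 to 0.56 (adjusted p = 0.968), which leaves room for a moderate change either way. *Hdac7*, known from endothelium and thymocytes, read 6.88, 7.22 and 6.78 in control and 6.32, 6.86 and 7.02 with PTH, also overlapping, with a change of −0.23 (SE 0.21, adjusted p = 0.690). *Hdac9*, whose short form lacks the deacetylase domain, has 4 probes, 2 of them above background on 1 PTH array each and 2 on none. The single probes of *Hdac4*, *Hdac7* and *Sik1* and 2 of those of *Hdac9* carry older gene names on the array.

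The SIKs stood higher with PTH on every array without passing the test. *Sik1*, itself a known target of cAMP signalling, read 6.41, 5.85 and 6.43 in control and 6.85, 6.78 and 6.72 with PTH. The PTH arrays were close together at 6.79 ± 0.065 and all above the control arrays, which spread more widely at 6.23 ± 0.33 (SD, n = 3). The change was 0.55 (SE 0.18, 95% interval 0.14 to 0.96), a level 1.47-fold that of control (adjusted p = 0.200, limma). *Sik2*, the kinase whose inhibition by PTH is best described in osteocytes, read 5.83, 5.97 and 5.88 in control and 6.18, 6.12 and 6.12 with PTH. Its groups did not overlap, and its change was 0.25 (SE 0.12, 95% interval −0.019 to 0.51, adjusted p = 0.379), or 1.19-fold. A second *Sik2* probe was above background on 1 PTH array. The change of *Sik1* exceeded that of *Sik2* by 0.31, a difference that did not pass the test (SE 0.28, 95% interval −0.24 to 0.85, adjusted p = 0.323, limma on the ratio within an array).

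**Figure D2:**
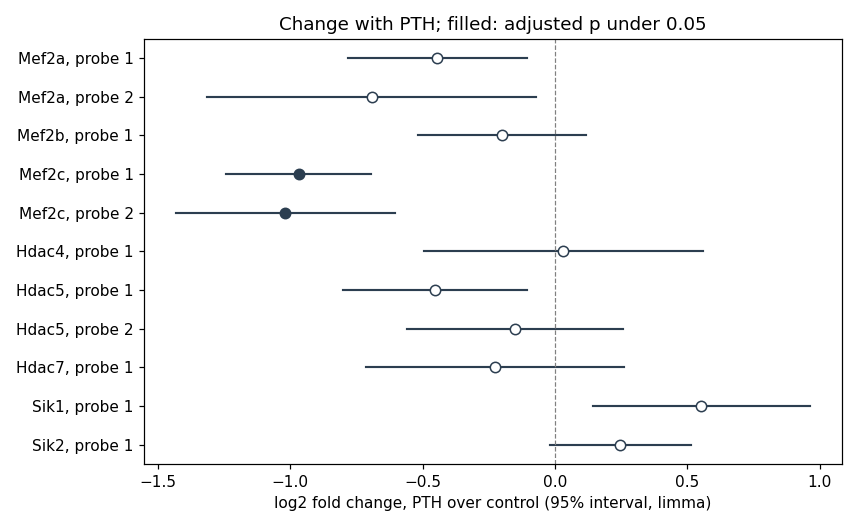
Change with PTH on the log2 scale (horizontal axis) for each member probe tested, with 95% intervals from limma and filled points where the adjusted p was under 0.05. The 2 filled points are the *Mef2c* probes, at −0.97 and −1.02, and the intervals of *Sik1*, of both *Mef2a* probes and of the first *Hdac5* probe exclude 0 before adjustment over all probes.

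Whether *Mef2c* changed more than the other members was asked directly, by the ratio of its signal to that of each member within an array, a comparison chosen after the values were seen. The change of *Mef2c* was lower than that of all 7 other members tested. The adjustment ran over the differences of *Mef2c* from all other genes tested, each of which holds the fall of *Mef2c*. It is therefore milder than in the main test. The adjusted p of such differences, here and below, are not to be compared with those of single genes. The difference was −0.52 against *Mef2a* (SE 0.14, adjusted p = 0.00745, limma) and −0.51 against *Hdac5* (SE 0.14, adjusted p = 0.00773). On the brightest probes, *Mef2c* thus moved further than the closest 2 members, whose own values also lay lower. The second probes of these members were not compared with *Mef2c*. That of *Hdac5* changed by −0.15 and that of *Mef2a* by −0.69. The interval of the latter, −1.31 to −0.07, holds the −0.97 of *Mef2c*. For *Mef2a* the result therefore rests on its brightest probe. The largest differences were those against *Sik1*, −1.52 (SE 0.18, adjusted p = 0.000252), and *Sik2*, −1.21 (SE 0.12, adjusted p = 0.000233). Those against *Mef2b*, *Hdac4* and *Hdac7* were −0.77, −0.999 and −0.74, with adjusted p of 0.000972, 0.00576 and 0.0131.

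Set against the osteocyte genes *Mepe*, *Dmp1* and *Phex*, the change of *Mef2c* was not told apart from theirs, whereas it differed from that of *Pdpn* by −1.67 (SE 0.16, adjusted p = 0.000233, limma). *Mepe*, an osteocyte matrix protein gene, changed by −1.02 (adjusted p = 0.0128, limma), and *Mef2c* differed from it by 0.05 (95% interval −0.31 to 0.41, adjusted p = 0.753). *Dmp1*, needed for osteocyte maturation and phosphate balance, changed by −1.21 (adjusted p = 0.0557), and the difference was 0.24 (interval −0.38 to 0.86, adjusted p = 0.398). For *Phex*, the phosphate-regulating endopeptidase, the difference was −0.09 (interval −0.58 to 0.41, adjusted p = 0.691). These intervals are wide, and a p that misses the threshold does not show equal changes.

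The genes whose profile over the 6 arrays was nearest to that of *Mef2c* were sought by the root mean square difference of mean-centred log2 values among 9300 genes above background on all arrays. They were *Ctsg*, a neutrophil granule protease, at 0.0479, *2310022B05Rik* at 0.0637, and *Ptgis*, the prostacyclin synthase of vessel walls, at 0.0681. Their changes were −1.02, −1.02 and −0.89, with adjusted p of 0.00774, 0.00830 and 0.0142 (limma). Changes near that of *Mef2c* follow from how these genes were picked, so their p-values add no evidence. The likeness describes 6 arrays only.

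Markers of other cell types were measured beside *Mef2c*, which endothelium, B cells, macrophages and muscle are known to express. Endothelial markers had a median change of −0.28 with none of 9 tested called, and summed to 2548 to 2815 in control and 2551 to 2861 with PTH. Macrophage markers had a median of −0.27 with none of 7 called, and summed to 6194 to 6347 in control and 5021 to 5356 with PTH. Of these 7 markers, 4 were lower and 1 higher without overlap, beside 10.9% and 11% of all genes tested. Neither the macrophage sum nor the neutrophil sum, given above, overlapped between groups. Of the B cell markers 3 of 7 were tested and 1, *Igll1*, rose, while *Cd79a*, *Ms4a1* and *Pax5* were above background on no array. In smooth muscle, 3 of 5 were tested and none called, with a median of −0.02. The part of these cells in the *Mef2c* result was not tested.

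For the other cell lists, osteoblast markers had 2 of 4 tested lower (*Ibsp* and *Sp7*, median −0.68) and red cell markers 2 of 2 lower (median −1.93). Cartilage markers had 1 of 5 lower (*Acan*, median −0.47) and osteoclast markers 3 of 5 higher (median 0.84). Of all genes tested, 1.05% were called lower and 0.705% higher. *Acan* was above background on no PTH array, so the size of its change rests on background values. The summed cartilage signal ran from 991 to 1011 in control and from 1031 to 1048 with PTH. Fat and T cell markers had none called, of 2 and 1 tested.

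The start regions of the members were read from the RefSeq promoter table for GRCm38.p6, which holds 15 windows of 300 bases for 9 members. In each window the MEF2 consensus and the cAMP response element (CRE) half-site TGACG were searched on both strands. The MEF2 consensus occurred in 3.19% of all 32851 windows in the table and in those of 2 members, *Mef2a* and *Hdac5*, and the half-site in 20.8% of all windows and in those of 3 members, *Hdac4*, *Hdac5* and *Sik2*. The full CRE, TGACGTCA, which contains the half-site on each strand, occurred in 1.79% of all windows and in no member. Below are 120 bases before and 25 after the start for *Mef2c* (the first of its 3 windows), the gene that was called, and for the 3 members with a match whose arrays did not overlap between groups. They run 5′ to 3′ on the strand of the gene, and capitals mark the matches.
Mef2c (chr13:83503914-83504058, plus strand): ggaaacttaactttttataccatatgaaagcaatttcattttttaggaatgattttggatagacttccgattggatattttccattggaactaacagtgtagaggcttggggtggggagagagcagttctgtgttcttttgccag
Mef2a (chr7:67372834-67372978, minus strand): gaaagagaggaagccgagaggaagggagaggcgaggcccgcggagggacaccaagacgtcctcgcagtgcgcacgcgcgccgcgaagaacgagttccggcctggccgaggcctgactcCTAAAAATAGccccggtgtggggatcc
Hdac5 (chr11:102230148-102230292, minus strand): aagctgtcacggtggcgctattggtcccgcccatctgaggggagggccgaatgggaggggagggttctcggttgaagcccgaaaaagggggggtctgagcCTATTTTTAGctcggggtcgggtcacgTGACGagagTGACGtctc
Sik2 (chr9:51009049-51009193, minus strand): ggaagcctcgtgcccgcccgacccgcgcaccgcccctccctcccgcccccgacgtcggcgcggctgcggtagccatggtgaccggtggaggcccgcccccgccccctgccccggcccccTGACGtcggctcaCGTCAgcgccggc
In *Mef2a* the MEF2 match spans the start, from −2 to 8 counted from the first transcribed base. *Hdac5* has one from −20 to −11 and half-sites at 8 to 12 and 17 to 21, and *Sik2* has half-sites at −1 to 4 and 13 to 17. No window of *Mef2c* holds these letters. A match is a stretch of letters and not a measured site, and binding was not measured.

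Around the members, 7 lists with 74 other genes of the pathway were examined. Of these, 73 were on the array and 49 were tested. Among those tested 1 fell and 2 rose, beside 1.05% and 0.705% of all genes tested. All 3 were among known targets of MEF2 or CREB, and the median change was 0.04. None of the regulators was called, which says little for so few genes when 1.76% of all genes tested were called.

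The kinases and adaptors upstream of the HDACs showed small changes. Of *Sik3*, the LKB1 complex and the CRTC coactivators, which SIKs also phosphorylate, 6 of 8 were tested, none was called, and changes ran from −0.15 to 0.27 with a median of 0.08. *Crtc1* changed by 0.27 (adjusted p = 0.501, limma), *Sik3* by 0.21 (adjusted p = 0.509) and *Crtc3* by 0.20 (adjusted p = 0.566), and *Crtc2* was above background on no array. Of the 14-3-3 proteins, the cytoplasmic anchors of phosphorylated HDACs, 6 of 7 were tested and none called, with a median of 0.09. The furthest of them from 0 was *Ywhae* at 0.24 (adjusted p = 0.495), followed by *Ywhag* at 0.12 and *Ywhab* at 0.11.

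Of the other kinases that phosphorylate class IIa HDACs, 8 of 12 were tested and none called (median 0.02). *Prkd3*, a protein kinase D, was higher on all PTH arrays with a change of 0.46 (SE 0.12, adjusted p = 0.129, limma), and the calmodulin-dependent kinases *Camk2d* and *Camk2g* changed by −0.29 and −0.24. Of the other HDACs and corepressors, 9 of 12 were tested and none called (median 0.03), with *Hdac1*, a class I deacetylase, at −0.23, *Gps2* at 0.23 and *Hdac10* at 0.20. Of MEF2 activators and cofactors only 3 of 8 were tested, and none was called. *Ep300*, the acetyltransferase that MEF2 recruits, was lower on all PTH arrays, with a change of −0.44 (SE 0.16, adjusted p = 0.242), and *Carm1* and *Mapk14*, the p38 kinase, changed by 0.10 and −0.04.

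Genes known as MEF2 or class IIa HDAC targets lay mostly lower with PTH, and genes known as CREB and CRTC targets mostly higher. Both lists were chosen with earlier results of these data known, so these directions describe the genes picked and are not an independent test. In the first list 8 of 15 were tested, 7 had a change below 0, 4 were lower without overlap between groups and 1 fell, beside 10.9% and 1.05% of all genes tested, with a median of −0.66 beside 0.005 over all genes. The gene that fell was *Tnfrsf11b*, which encodes osteoprotegerin, the decoy receptor of RANKL. It read 11.09, 11.33 and 11.14 in control and 9.71, 9.65 and 9.41 with PTH, a change of −1.60 (SE 0.14, adjusted p = 0.00194, limma). That change was larger than the change of *Mef2c*, by 0.63 (95% interval 0.34 to 0.91, adjusted p = 0.00158).

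*Sost*, the target most closely tied to this pathway in osteocytes, was dim. It read 6.19, 5.23 and 6.44 in control and 4.52, 4.46 and 5.24 with PTH, where only 1 array was above background, and the highest PTH value lay just above the lowest control value. Its change of −1.21 (SE 0.34, adjusted p = 0.150, limma) did not pass the test, and its size rests on PTH values near background. *Klf2*, a shear-responsive factor, changed by −0.94 (adjusted p = 0.108) and *Col10a1*, a collagen of hypertrophic cartilage, by −0.90 (adjusted p = 0.0918), both without overlap. *Col10a1* was above background on only 1 PTH array, and the size of its change also rests on values near background. The muscle targets *Slc2a4*, *Ckm*, *Smyd1* and *Xirp1* and the immediate early gene *Nr4a1* were above background on no array.

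In the list of CREB and CRTC targets, 9 of 13 were tested, 8 had a change above 0, 7 were higher without overlap between groups and 2 rose, beside 11% and 0.705% of all genes tested, with a median of 0.58. *Rgs2*, a brake on G protein signalling, read 4.62, 4.89 and 5.00 in control and 6.22, 6.62 and 6.31 with PTH, and only 1 control array was above background. It rose by 1.55 (SE 0.16, adjusted p = 0.00578, limma), a size that rests on control values near background. *Tnfsf11*, which encodes the osteoclast factor RANKL, read 8.21, 8.02 and 8.93 in control and 9.91, 9.65 and 10.09 with PTH, and rose by 1.49 (SE 0.25, adjusted p = 0.0298). The phosphodiesterases *Pde4d* and *Pde4b*, which break down cAMP, changed by 0.86 (adjusted p = 0.182) and 0.58 (adjusted p = 0.0780), and the phosphatase gene *Dusp1* by 0.65 (adjusted p = 0.0545).

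**Figure D3:**
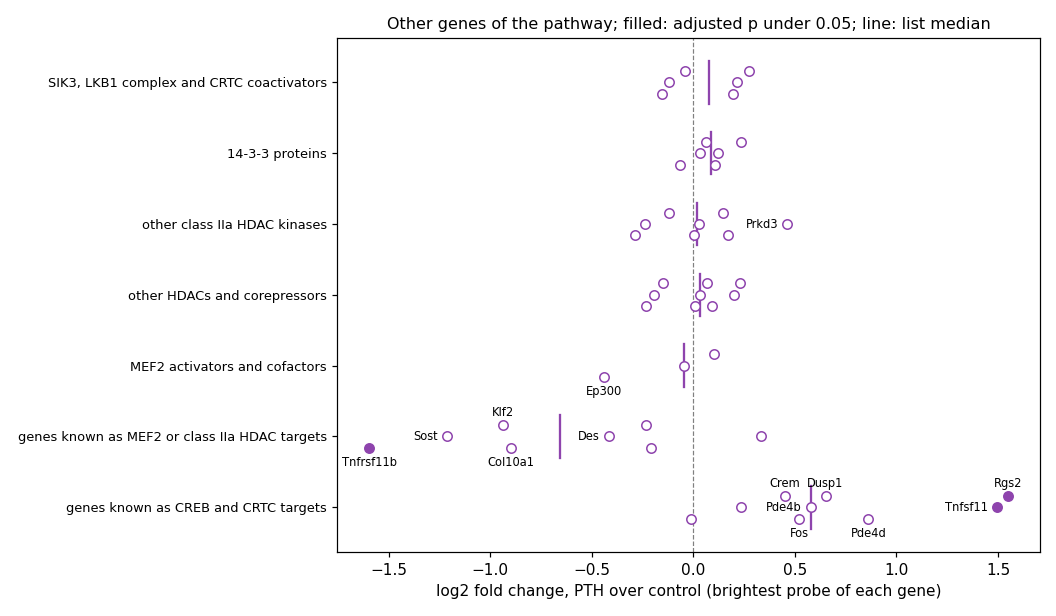
Change with PTH on the log2 scale (horizontal axis) of the 49 pathway genes tested, one point per gene on its brightest probe, in 7 lists, with filled points at an adjusted p under 0.05 and a line at each list's median. The 5 lists of regulators lie around 0, MEF2 or class IIa HDAC targets have a median of −0.66 and CREB and CRTC targets one of 0.58. All lists were chosen with earlier results of these data known.

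The directions of the members held under nearly all ways of processing the arrays. *Mef2c*, *Mef2a* and *Hdac5* stayed below 0 and *Sik1* and *Sik2* above 0 under all 10 other settings and with each of the 6 arrays left out. Of these settings, other detection filters, the replicate block and the methods' t-test leave each of these 5 changes as reported. They therefore do not test a direction, and nor does the mean of probes for *Sik1* and *Sik2*. The change of *Mef2c* ranged from −0.99 to −0.80 over the other settings and from −1.005 to −0.90 with 1 array left out. The sizes of smaller changes depended more on the setting. Under quantile normalization alone *Mef2a* was at −0.22, *Sik1* at 0.26 and *Sik2* at 0.10, under median scaling *Hdac5* was at −0.30, and without control replicate 2 *Sik1* was at 0.36. The change of *Hdac4* turned to −0.15 when control replicate 2 or PTH replicate 3 was left out.

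**Figure D4:**
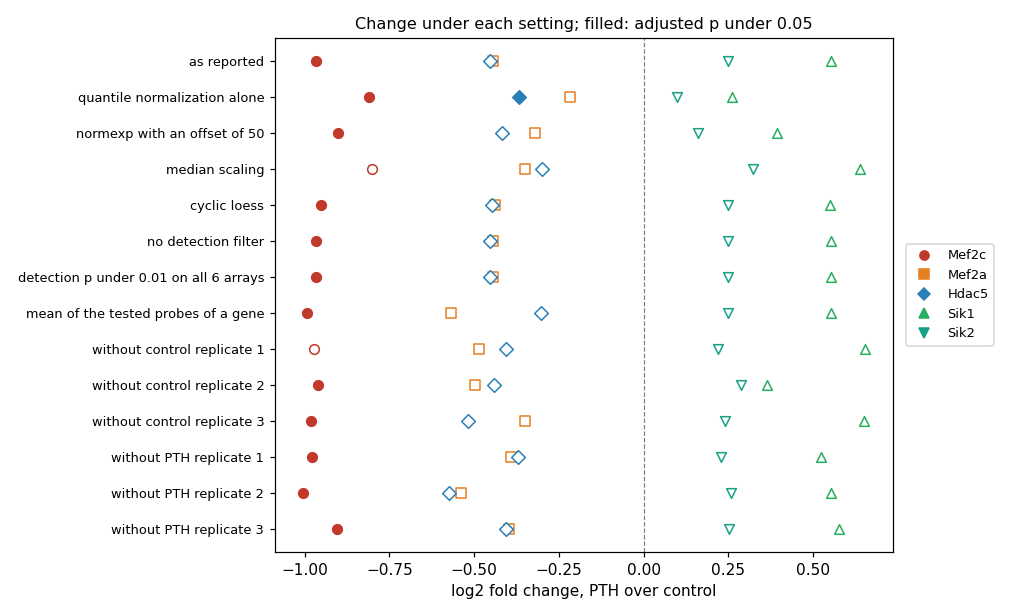
Change with PTH on the log2 scale (horizontal axis) of 5 members under 7 other ways of processing, all without a replicate block, and with each array left out, with filled symbols at an adjusted p under 0.05. Among these, *Mef2c* is open under median scaling and without control replicate 1, and *Hdac5* is filled under quantile normalization alone.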

How the data were processed

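Cortical bone tubes of mouse tibia and femur, untreated (control, 3 arrays) or given 250 nM PTH for 24 hours (3 arrays), were profiled on Illumina mouse bead arrays. The values deposited are linear signal intensities of 45281 probes, neither normalized nor background subtracted, with a detection p-value for each probe and array deposited beside it that compares the probe with negative controls. The submitters' processing notes name GenomeStudio, without a version.

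Signals were corrected by normexp through the detection p-values with an offset of 16, normalized by quantiles and converted to log2 (neqc, limma 3.58.1, R 4.3.3). A probe was tested with detection p under 0.05 on at least 3 of the 6 arrays, and 16214 passed. The groups were compared by lmFit and eBayes without a replicate block, with Benjamini-Hochberg adjustment across the tested probes, and the brightest probe stood for its gene. Listed symbols were brought to those of the RefSeq gene table of GRCm38.p6, which gave 22841 probes a current symbol directly and 11981 through an older name. The members have 23 probes, 18 under the member symbol and 5 under an older name, and 1 probe listed as clone 4932408F19 was not counted. The procedure was tested on simulated data. The labels do not say whether arrays with the same replicate number belong together. Deviations from the group means correlated at 0.273 for number 3, but only at 0.067 and 0.064 for numbers 1 and 2.

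The members and lists were chosen with earlier results of these data known. Named genes were every member, from each list those called and up to 3 others furthest from 0, and the 3 genes nearest to *Mef2c*. Quantile normalization alone, another offset, median scaling, cyclic loess, other detection filters and the mean of probes were tried. So were the replicate block, Student's t-test and leaving out each array. The second *Mef2c* probe and the differences in change between genes were added after seeing the data. The authors' normalized values were not used here.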

Additional observations from a re-analysis of the deposited data

How the results depend on the processing

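Of the results recomputed, *Mef2c* kept its direction under every alternative, though other detection filters, the replicate block and the t-tests leave its change as reported. It missed the threshold under median scaling (−0.80, adjusted p = 0.244, limma), with the replicate block (−0.97, adjusted p = 0.0538) and without control replicate 1, and with 1 array left out its change was −1.005 to −0.90 with adjusted p of 0.0350 to 0.0591. The member genes called numbered 1 as reported, 2 with quantile normalization alone, 0 with median scaling and 0 with the replicate block. They numbered 5 by Student's t-test without adjustment, and 0 to 1 with 1 array left out. The pathway genes called numbered 3 as reported, 10 with quantile normalization alone, 7 with an offset of 50, 6 with detection p under 0.01 on all 6 arrays, 5 with the mean of probes, 12 by the unadjusted t-test, and 2 to 3 with 1 array left out. Over all genes the 202 called became 576 with quantile normalization alone, 397 with the offset of 50, 328 with the stricter detection filter, 103 with median scaling, 43 with the replicate block, 1721 by the unadjusted t-test, 88 by the t-test after Benjamini-Hochberg adjustment, and 49 to 93 with 1 array left out. Leaving out an array leaves fewer samples to test, and for the other changes the cause was not tested. Median scaling moved the median of all genes to 0.117, so that *Mef2c* stood at −0.92 relative to it, and the share of called genes that were higher with PTH from 40.1% to 61.2%. *Hdac4*, not called, ran from −0.15 to 0.21 with 1 array left out, and was at −0.15 without control replicate 2 and without PTH replicate 3 alike. The second *Mef2c* probe stayed negative but missed the threshold under median scaling (adjusted p = 0.0815), without a detection filter (0.0721), with the replicate block (0.106) and in 5 of 6 fits with 1 array left out (0.0353 to 0.126 over the 6). The differences of the change of *Mef2c* from those of the other members tested were not computed for the t-tests or the mean of probes. The difference from *Mef2b* was also missing under the stricter detection filter. In all other fits these differences kept their side of the threshold, with a highest adjusted p of 0.0430 (limma), against *Hdac7*. All differences adjusted together hold the change of *Mef2c*, so this threshold is milder than that for single genes. Arrays with the same number deviated together with correlations of 0.067, 0.064 and 0.273. Control replicate 3 correlated best with PTH replicate 3, but control replicate 1 correlated best with PTH replicate 2. The replicate block thus rests on a shared number, and whether the arrays were paired is not settled. No slide is named, so a slide block was not run. Signal over background limits *Mef2d* and *Hdac9*, which could not be tested, and *Mef2b*, which lay near it.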
